A study of Rattus norvegicus with 28 samples.

Results

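The genes described here are 93 Ensembl genes whose transcripts were more abundant in the medial prefrontal cortex (mPFC) than in the nucleus accumbens (NAc) of rats that received wild-type histone H3.3. They were chosen from a table of 15635 genes by 2 conditions on the H3.3WT libraries alone. The mean level in mPFC had to reach 10 CPM (a gene's count divided by the library's summed counts, times 1000000). The log2 ratio of the mPFC mean over the NAc mean, with 0.5 CPM added to each, had to reach 2. Of 10302 genes at 10 CPM or more in mPFC H3.3WT, 93 met the second condition, and 3 identifiers that the definition leaves out were not analysed here. The mirrored condition, with the regions exchanged, gave 122 NAc-enriched genes, which are used below only for comparison.

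The study sequenced polyadenylated RNA from brain tissue of male Sprague-Dawley rats, young adults of 200 to 250 g per the labels. The rats self-administered cocaine for 10 days under extended access and were then injected on both sides of either the NAc or the mPFC with a lentivirus, either lenti-pCDH-H3.3WT, which carries wild-type H3.3, or the mutant lenti-pCDH-H3.3Q5A. A cue-seeking session followed after 30 days of viral expression and enforced abstinence. The 4 groups, mPFC H3.3WT, mPFC H3.3Q5A, NAc H3.3WT and NAc H3.3Q5A, had 7 libraries each, 28 in all. Every group carried a virus and had taken cocaine, so no group without either was compared. The labels name no promoter or target cell type for the virus and do not tie a library to an animal, so a p-value here covers library-to-library spread alone, which may be technical. Each title also ends in P1 or P2, a mark that is not explained. It was present in every group as 3 or 4 libraries of each kind and entered each fit as a term.

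As background, the mPFC is neocortex, in which most neurons are glutamatergic pyramidal cells arranged in layers, and the NAc is ventral striatum, in which most neurons are GABAergic spiny projection cells. Genes of cortical excitatory neurons are therefore commonly far more abundant in a cortical than in a striatal sample. H3.3 is a histone variant deposited in chromatin outside of replication, and Q5A replaces the glutamine at the fifth residue of its tail, a residue that can carry dopamine, with alanine, which cannot. In dissected tissue, a smaller number of cells of one type and less RNA per cell cannot be told apart. The deposited table does not pair identifiers with gene names, and no identifier was matched to a symbol in the reference tables used here. The functions of the 93 genes and the cell type markers of either tissue are therefore not given, and genes are named by identifier.

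Total counts per library, in units of 1000000 counts, were 29.1 ± 7.36 (SD, n = 7) in mPFC H3.3WT, 36.6 ± 6.72 in mPFC H3.3Q5A, 26.7 ± 5.93 in NAc H3.3WT and 26.6 ± 11.5 in NAc H3.3Q5A. The shallowest library was at 15.4 in the same units. The smallest count of any of the 93 genes in an mPFC library was 12, and 1 gene, ENSRNOG00000010983, had a count of 0 in a NAc library. No 2 libraries of a group were near-duplicates, since their counts differed by a chi-square of at least 7.56 for each degree of freedom. The NAc libraries differed among themselves in the level of these genes, and 4 libraries recur below: NAc H3.3WT replicate 12, NAc H3.3Q5A replicate 19, mPFC H3.3WT replicate 13 and mPFC H3.3Q5A replicate 34.

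The 93 genes spanned a wide range of abundance in mPFC and were low, but mostly measurable, in NAc. Their mean level in mPFC H3.3WT had a median of 48.6 CPM and ran from 10.7 to 1813 CPM. In NAc H3.3WT the corresponding median was 8.21 CPM, with a range of 0.172 to 341 CPM. There were 25 genes at 100 CPM or more in mPFC H3.3WT, 15 under 20 CPM, and 5 under 1 CPM in NAc H3.3WT. Together they took 1.11% ± 0.123 (SD, n = 7) of the counts in mPFC H3.3WT, whereas the NAc H3.3WT share was 0.219% ± 0.103. These values chose the genes and are a description without a test. With H3.3Q5A, in libraries that the choice did not use, the shares were 1.05% ± 0.111 in mPFC and 0.151% ± 0.0661 in NAc.

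The log2 ratio under H3.3WT had a median of 2.34 and reached 4.55, and 12 genes reached 3. Near the ratio threshold, ENSRNOG00000008118 lay just inside, with means of 32.0 (mPFC) and 7.62 CPM (NAc). ENSRNOG00000016708 lay just outside at 84.6 and 20.8 CPM. Near the abundance threshold, ENSRNOG00000019184 was inside at 10.7 CPM in mPFC, and the nearest gene outside that met the ratio had 9.50 CPM. The number of genes depended on single NAc libraries, as it was 79 without NAc H3.3WT replicate 17 or replicate 21 and 115 without NAc H3.3WT replicate 12.

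**Figure D1:**
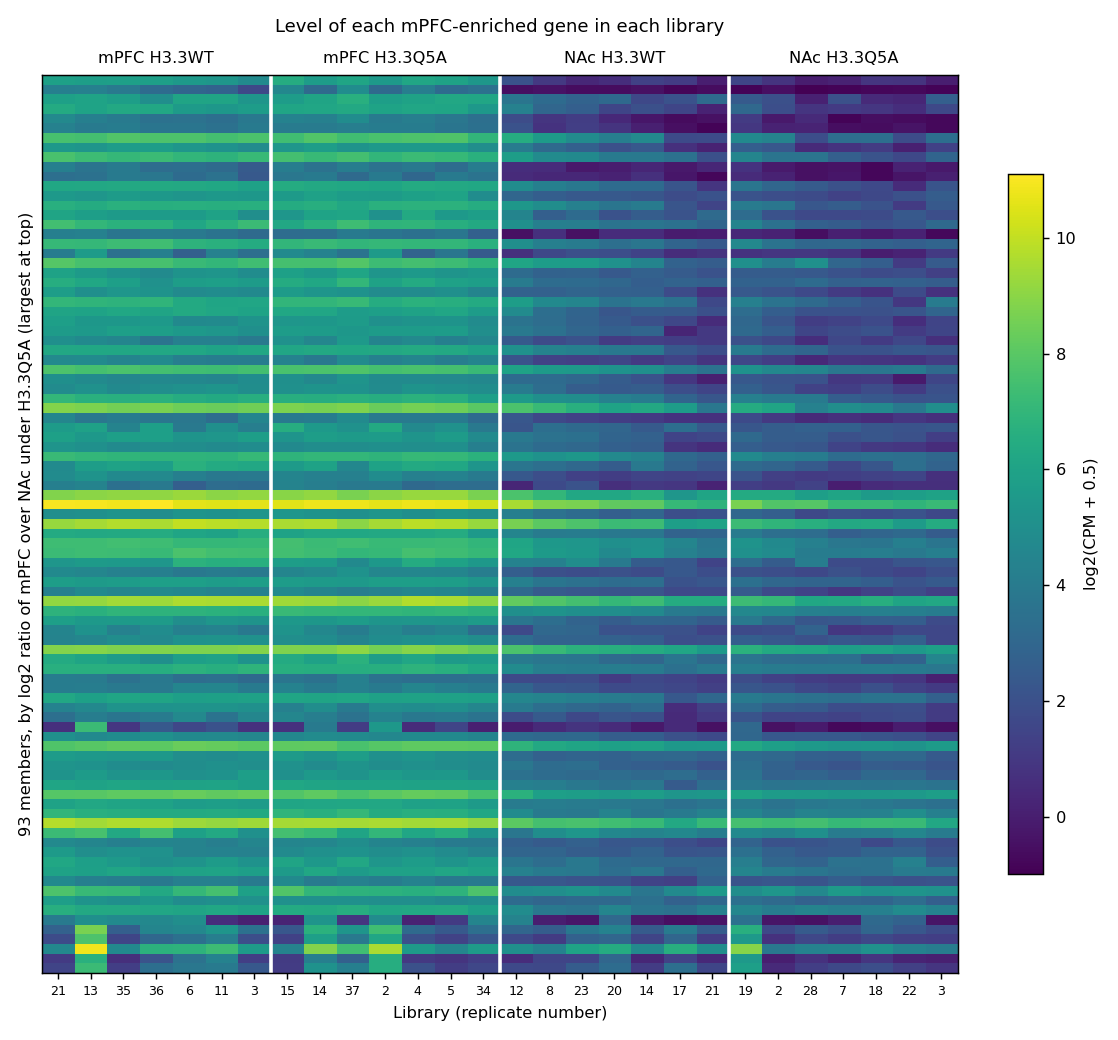
Level of each of the 93 genes (rows, ordered by the mPFC over NAc ratio under H3.3Q5A) in each of the 28 libraries (columns, by group and, within a group, by falling mean level of 87 of the genes), as log2(CPM + 0.5) in colour. Most rows are darker in the 14 NAc libraries than in the 14 mPFC libraries, while 6 rows in the lower part are brightest within their groups in mPFC H3.3WT replicate 13, mPFC H3.3Q5A replicate 2 and NAc H3.3Q5A replicate 19.

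The most abundant gene of the list was ENSRNOG00000016156. Its level in the 7 mPFC H3.3WT libraries had a lowest, median and highest value of 1470, 1854 and 2214 CPM, against 113, 288 and 728 CPM in NAc H3.3WT. With H3.3Q5A it was 1204, 1667 and 1799 CPM in mPFC and 123, 149 and 408 CPM in NAc. The lowest mPFC library was above the highest NAc library under either virus, and the highest NAc values were those of NAc H3.3WT replicate 12 and NAc H3.3Q5A replicate 19. Over the H3.3Q5A libraries its fitted log2 fold change of mPFC over NAc was 2.93 (SE 0.25, edgeR adjusted p = 2.73e-07).

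The largest ratio under H3.3WT belonged to ENSRNOG00000016999. It ranged from 27.2 through a median of 55.7 to 59.3 CPM in mPFC H3.3WT, and from 0.502 through 1.52 to 3.61 CPM in NAc H3.3WT. With H3.3Q5A the lowest, median and highest levels were 41.9, 62.0 and 89.6 CPM in mPFC and 0.469, 1.28 and 2.43 CPM in NAc. The regions were again separate under both viruses, with a fitted log2 fold change of 5.69 (SE 0.29, edgeR adjusted p = 4.7e-09) over the H3.3Q5A libraries.

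To ask whether the excess in mPFC was present in libraries that had no part in choosing the genes, mPFC H3.3Q5A was compared with NAc H3.3Q5A. Of the 93 genes, 86 were higher in mPFC by an adjusted p under 0.05 together with a fitted log2 change of 1 or more (edgeR quasi-likelihood test over 15575 genes, Benjamini-Hochberg adjustment). By the same criterion, 7.64% of all genes tested were higher in mPFC. The median fitted log2 fold change was 2.94, beside -0.01 over all genes tested, and each of the 93 genes had a value above 0. DESeq2 called 87 of the genes and limma's voom with sample weights called 86. Without NAc H3.3Q5A replicate 19 the count was 92, and without mPFC H3.3Q5A replicate 34 it was 86.

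In 86 of the 93 genes each mPFC H3.3Q5A library was above each NAc H3.3Q5A library, a pattern that 17.3% of all genes showed. Under H3.3WT, where the groups chose the genes, it held for 85 genes, beside 13.5% of all genes. The log2 ratio of group means under H3.3Q5A had a median of 2.94 and a range of 1.16 to 5.26. It was 2 or more for 83 genes and 1 or more for all 93, and 82 genes would have met both conditions of the definition in the H3.3Q5A libraries. It was larger than the ratio under H3.3WT for 77 genes. All 77 were among the 87 genes outside the 6 set apart below, and the ratio was larger for 0 of those 6. The ratio under H3.3WT chose the genes, so this count is not independent of the choice. The share of all genes with a larger ratio under H3.3Q5A is not given beside it, so no trait of the list is read from the count. The test of the difference is given below with the virus comparisons.

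**Figure D2:**
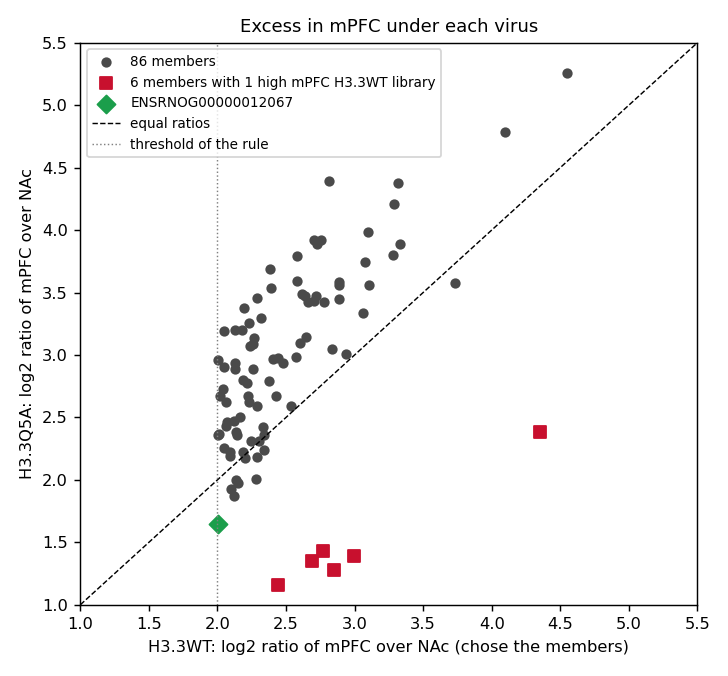
Log2 ratio of mean CPM in mPFC over NAc under H3.3WT (horizontal axis, the values that chose the genes, with the threshold of 2 as a dotted line) and under H3.3Q5A (vertical axis), 1 point per gene and 0.5 CPM added to each mean. Most of the 93 genes lie above the line of equal ratios, and the 6 square points lie well below it.

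The 7 genes that were not called had irregular levels between libraries of the same group. In 6 of them the highest mPFC H3.3WT library was 15.3 to 61.4 times the group median, whereas in the other 87 genes this quotient did not pass 2.96. These 6 genes, ENSRNOG00000018735, ENSRNOG00000032844, ENSRNOG00000033215, ENSRNOG00000000451, ENSRNOG00000024899 and ENSRNOG00000032708, were set apart after their values were seen, by a quotient of at least 4. All 6 were highest in mPFC H3.3WT replicate 13, mPFC H3.3Q5A replicate 2 and NAc H3.3Q5A replicate 19 within those groups.

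ENSRNOG00000018735 was the most abundant of the 6. It had a lowest, median and highest level of 24.6, 109 and 1842 CPM in mPFC H3.3WT, against 20.5, 32.4 and 96.1 CPM for NAc H3.3WT. With H3.3Q5A it had 20.9, 49.2 and 770 CPM in mPFC and 14.01, 20.4 and 477 CPM in NAc. The regions overlapped under both viruses, and the fitted log2 fold change over the H3.3Q5A libraries was 1.76 (SE 1.18, edgeR adjusted p = 0.218).

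ENSRNOG00000024899 had the second-largest log2 ratio of all 93 genes under H3.3WT, 4.35. Its 7 mPFC H3.3WT libraries had a median of 2.50 CPM and a highest value of 153 CPM, so that the mean of 24.002 CPM was set mostly by 1 library. In mPFC H3.3Q5A its lowest, median and highest levels were 0.559, 1.72 and 43.9 CPM, and in NAc H3.3Q5A 0.0938, 0.235 and 8.14 CPM. The fitted log2 fold change under H3.3Q5A was 2.61 (SE 1.32, edgeR adjusted p = 0.106).

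The summed level of these 6 genes was 2879 CPM in mPFC H3.3WT replicate 13 and 38.7 to 251 CPM in the other 6 mPFC H3.3WT libraries. In mPFC H3.3Q5A it was 1244 CPM in replicate 2, 703 CPM in replicate 14 and 31.9 to 247 CPM elsewhere. In NAc H3.3Q5A it was 732 CPM in replicate 19 and 19.4 to 49.1 CPM elsewhere, and in NAc H3.3WT it stayed between 33.3 and 133 CPM. The 6 genes were thus high in the same few libraries of 3 groups. As a description over the 14 libraries of a region, centred within groups, the median pairwise correlation of their log2 levels was 0.96 in mPFC and 0.94 in NAc. The points of each pair share libraries and depth.

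Without mPFC H3.3WT replicate 13 the log2 ratios of the 6 genes were 0.64 to 1.31, below the threshold of 2, and 5 further genes near a threshold also fell out, leaving 84 genes, some of which had been outside before. None of the 6 was called under H3.3Q5A, where their adjusted p-values in edgeR ran from 0.106 to 0.517. When NAc H3.3Q5A replicate 19 was left out, all 6 were called, with a median log2 fold change of 3.42 and adjusted p-values in edgeR of 0.00409 to 0.0125. That fit left out the high NAc library but kept the high mPFC H3.3Q5A libraries. In replicates 2 and 14 of that group the summed level of the 6 genes was 1244 and 703 CPM. No general excess of the 6 genes in mPFC is therefore read from it. Among the other 87 genes, 86 were called, with a median log2 fold change of 3.02.

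**Figure D3:**
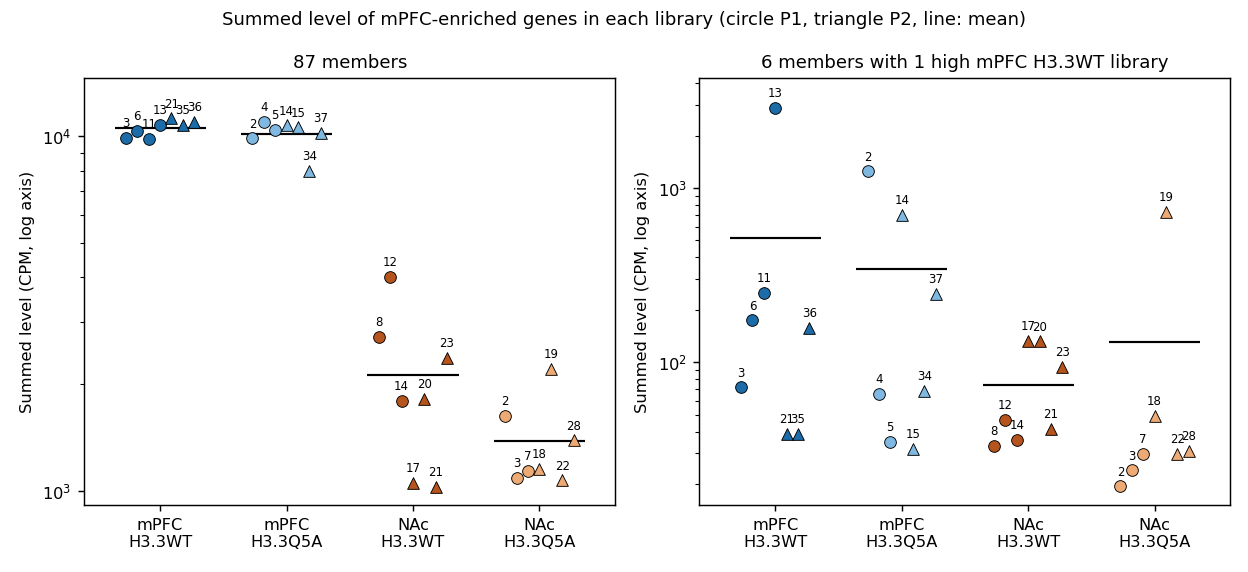
Summed level in CPM (log axis) of 87 of the genes (left) and of the 6 genes with 1 high mPFC H3.3WT library (right) in each library, with replicate numbers, circles for P1, triangles for P2 and a line at the group mean. On the left the mPFC libraries lie between 8004 and 11235 CPM and the NAc libraries between 1027 and 4026 CPM, and on the right the regions overlap and single libraries reach 2879, 1244 and 732 CPM.

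The seventh gene that was not called, ENSRNOG00000012067, had 2 separate levels. It lay between 6.54 and 38.6 CPM in 13 libraries and between 0.194 and 1.56 CPM in the other 15. Both levels occurred in every group, with the upper one in 5 mPFC H3.3WT, 3 mPFC H3.3Q5A, 2 NAc H3.3WT and 3 NAc H3.3Q5A libraries. Its log2 fold change of mPFC over NAc under H3.3Q5A was 2.24 (SE 1.08, edgeR adjusted p = 0.0901).

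The spread of the 93 genes between libraries was wider in NAc, where their levels were low, than in mPFC. The coefficient of variation (CV, the SD divided by the mean) over the 7 libraries had a median over the 93 genes of 20.2% in mPFC H3.3WT, against 49.5% for NAc H3.3WT. Over all genes the medians were 12.5% and 16.8%. With H3.3Q5A they were 19.1% in mPFC and 45.6% in NAc, beside 13.7% and 13.8% over all genes. The CV was larger in NAc for 73 of the 93 genes under H3.3WT and for 81 under H3.3Q5A. The mirrored NAc-enriched genes had median CVs under H3.3Q5A of 43.5% in mPFC, where they were low, and 23.5% in NAc, and under H3.3WT of 24.8% and 24.3%. The part of lower counts in the spread was not tested.

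The gene with the smallest CV in mPFC H3.3WT, 4.30%, was ENSRNOG00000029165. Its lowest, median and highest levels were 429, 448 and 484 CPM in mPFC H3.3WT, against 46.9, 95.6 and 204 CPM for NAc H3.3WT, where its smallest count was 1092. The highest NAc value was again that of replicate 12. ENSRNOG00000026055 was nearly as even in mPFC H3.3WT, at 86.5, 97.8 and 102 CPM, yet ran from 2.28 through 16.2 to 42.4 CPM in NAc H3.3WT, a CV of 78.8%. The most even gene in NAc H3.3WT was ENSRNOG00000017328, with 6.21, 6.93 and 9.28 CPM and a CV of 15.4%. At the other end, ENSRNOG00000012067, the gene with 2 separate levels, had the largest CV in NAc H3.3WT, 178%. ENSRNOG00000021256 was next, with 0.618, 3.37 and 19.5 CPM in NAc H3.3WT, a CV of 108%. Its mPFC H3.3WT levels were 41.9, 65.4 and 84.4 CPM, a CV of 26.3%.

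**Figure D4:**
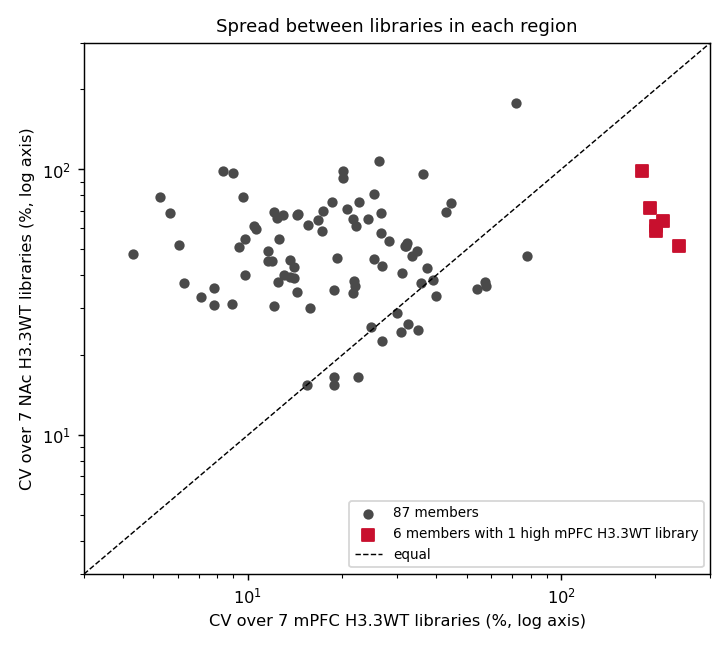
CV in percent over the 7 mPFC H3.3WT libraries (horizontal, log axis) and over the 7 NAc H3.3WT libraries (vertical, log axis) for each of the 93 genes, with the line of equality. The CV was larger in NAc for 73 genes, a count that was not taken over all genes. The 6 square points are the genes with 1 high mPFC H3.3WT library, whose CV in mPFC was 181% or more.

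Within NAc many of the genes were high or low in the same libraries. NAc H3.3WT replicate 12 was the highest of its group for 67 of the 93 genes, and replicates 21 and 17 were the lowest for 46 and 29. In NAc H3.3Q5A, replicate 19 was the highest for 72 genes, and replicates 3 and 22 were the lowest for 33 and 25. The summed level of the 87 genes without a single high library was 4026 CPM in NAc H3.3WT replicate 12 and 1027 CPM in replicate 21. In NAc H3.3Q5A it was 2214 CPM in replicate 19 and 1071 to 1624 CPM in the other 6. In mPFC the corresponding sums were 9819 to 11235 CPM with H3.3WT and 8004 to 10981 CPM with H3.3Q5A. The lowest of these, mPFC H3.3Q5A replicate 34, was the lowest of its group for 54 genes. How many of all genes were highest or lowest in each library was not counted. The counts in this paragraph therefore do not tell a trait of the list from one of the whole library.

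Over the 14 NAc libraries, centred within groups, the median correlation of log2 level between pairs of the 93 genes was 0.52, and 92.2% of pairs were above 0. Over all pairs of genes in the table the median was 0.09. In mPFC the medians were 0.21 for the list and 0.04 for all genes. The mirrored NAc-enriched genes had the opposite order, with a median of 0.47 in mPFC, where 82.8% of their pairs were above 0, and 0.29 in NAc. Each list thus had its higher median in the region where its levels were low. These are descriptions of genes that share libraries and depth.

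The NAc-enriched genes of the mirrored condition had their own differences between the same libraries. Their mean log2(CPM + 0.5) was 5.88 in NAc H3.3WT replicate 12 and 5.99 in replicate 8, and 6.30 and 6.31 in replicates 21 and 17. In NAc H3.3Q5A it was 6.03 in replicate 19 and 6.78 in replicate 3. In mPFC it was 4.03 in H3.3Q5A replicate 34, 3.44 in H3.3WT replicate 11 and 2.90 to 3.15 in the other 12 libraries. By this mean, the libraries in which the mPFC-enriched genes were highest in NAc had lower levels of the NAc-enriched genes. The mPFC library in which the mPFC-enriched genes were lowest had the highest level of the NAc-enriched genes. For NAc H3.3WT replicate 12 the pattern depended on the measure. Its summed level of the NAc-enriched genes was 21047 CPM, above the 19536, 18819 and 19106 CPM of replicates 8, 14 and 23. The part of these levels in the results on the virus was not tested.

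The next question was how the 93 genes responded to H3.3Q5A in NAc. Most had a lower fitted level with H3.3Q5A, but no gene passed the test, and the size of the difference changed with single libraries. Since the H3.3WT libraries of the comparison also chose the genes for a low NAc level, the comparison is not independent of the choice. Of 92 genes tested, 0 were called at an adjusted p under 0.05 in edgeR, as were 0% of all 15315 genes tested. DESeq2 and voom also called 0 of the 92. ENSRNOG00000010983 was left out by the filter on low counts. At an unadjusted p under 0.05, 22 of the 92 were lower with H3.3Q5A and 0 were higher, where 4.32% of all genes were lower and 3.52% higher. The log2 fold change was below 0 for 78 of the 92, beside 48.5% of all genes. Its median was -0.48, beside 0.01 over all genes, with a median SE of 0.33. The genes varied together between NAc libraries, so they are not separate observations. No excess over all genes is therefore read from these counts or from those of the fits below.

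The mean log2(CPM + 0.5) of the 93 genes was 3.14 ± 0.57 (SD, n = 7) in NAc H3.3WT and 2.69 ± 0.46 in NAc H3.3Q5A, so that the groups overlapped. The mean CPM was lower with H3.3Q5A for 80 of the 93, where 50.5% of all genes were lower. In the P1 libraries the means were 3.50 with H3.3WT and 2.56 with H3.3Q5A, and in the P2 libraries 2.87 and 2.78. The fits within each mark gave median log2 fold changes of -0.98 over the P1 libraries and -0.13 over the P2 libraries, each over 91 genes. The median was -0.84 when NAc H3.3Q5A replicate 19 was left out, -0.36 when NAc H3.3WT replicate 12 was, and -0.66 without both. The number of genes lower at an unadjusted p under 0.05 was 60, 8 and 46 in those fits, where 5.89%, 3.50% and 4.23% of all genes were lower at that p. Without NAc H3.3WT replicate 21 it was 40, beside 7.03% of all genes. It was 5 to 12 when any one of NAc H3.3WT replicates 8, 12, 20 and 23 or NAc H3.3Q5A replicates 2, 3, 7, 18 and 22 was left out, beside 2.46% to 4.11% of all genes.

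The NAc direction of the 6 genes with 1 high mPFC library was that of a single library. Over all 14 NAc libraries their log2 fold changes had a median of 0.56, with a median SE of 0.73. Without NAc H3.3Q5A replicate 19 the median was -1.15 and each of the 6 was below 0. Over the P1 libraries, which do not include it, the 5 of them that could be tested were also below 0, with a median of -0.53.

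The smallest unadjusted p in NAc belonged to ENSRNOG00000012989. Its lowest, median and highest levels were 2.58, 8.40 and 12.4 CPM with H3.3WT and 0.587, 3.34 and 5.86 CPM with H3.3Q5A. The groups overlapped, and the log2 fold change was -1.47 (SE 0.49, edgeR unadjusted p = 0.00938, adjusted p = 0.637). ENSRNOG00000001750 had 3.67, 6.32 and 8.98 CPM with H3.3WT and 1.95, 3.66 and 5.26 CPM with H3.3Q5A, and its log2 fold change was -0.62 (SE 0.22). It also overlapped between groups. In the upward direction the leading genes were ENSRNOG00000029980 and ENSRNOG00000054809. The former had 5.83, 13.6 and 19.4 CPM with H3.3WT and 10.4, 14.9 and 21.99 CPM with H3.3Q5A, which gave a log2 fold change of 0.31 (SE 0.22, edgeR adjusted p = 0.696) that was -0.15 over the P1 libraries alone. The latter had a log2 fold change of 0.30 (SE 0.22, edgeR adjusted p = 0.703).

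In mPFC the 93 genes were close to the same level with either virus. Their mean log2(CPM + 0.5) was 5.68 ± 0.22 (SD, n = 7) with H3.3WT, beside 5.67 ± 0.22 after H3.3Q5A. The mean CPM was lower with H3.3Q5A for 55 of the 93, where 39.7% of all genes were lower. Of the 93 genes, 0 were called by edgeR, as were 0% of 15485 genes tested, and DESeq2 and voom called 0. At an unadjusted p under 0.05, 1 was higher and 2 were lower with H3.3Q5A, where 4.27% of all genes were higher and 3.62% lower. The log2 fold change was below 0 for 56 genes, beside 49.3% of all genes, with a median of -0.05 and a median SE of 0.13. The medians were 0.03 over the P1 libraries and -0.13 over the P2 libraries. Without mPFC H3.3Q5A replicate 34 the log2 fold change was below 0 for 47 genes, with 4 higher and 1 lower at an unadjusted p under 0.05. The shares of all genes in that fit are not given beside these counts, so no change in the list is read from them. Without mPFC H3.3WT replicate 13 the median was -0.03. Here the H3.3WT libraries had chosen the genes for a high mPFC level.

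The 2 genes with the smallest p among those lower in mPFC were ENSRNOG00000006060 and ENSRNOG00000047783. ENSRNOG00000006060 had a lowest, median and highest level of 29.4, 33.96 and 54.01 CPM with H3.3WT and 26.8, 31.7 and 33.5 CPM with H3.3Q5A, for a log2 fold change of -0.30 (SE 0.09, edgeR unadjusted p = 0.00571, adjusted p = 0.626). ENSRNOG00000047783 had a log2 fold change of -0.20 (SE 0.09). In both the groups overlapped. The only gene higher at an unadjusted p under 0.05 was ENSRNOG00000012942, with 98.8, 113 and 122 CPM with H3.3WT and 112, 129 and 147 CPM with H3.3Q5A, giving a log2 fold change of 0.19 (SE 0.06, edgeR adjusted p = 0.626). ENSRNOG00000026919 had a log2 fold change of 0.30 (SE 0.15).

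The precision of the 2 virus comparisons differed. An approximate 95% interval (from the SE of the log2 fold change, as for a normal value) lay within a 1.5-fold change in either direction for 68 of 93 genes in mPFC and for 11 of 92 in NAc. It lay within a 2-fold change for 83 genes in mPFC and for 37 in NAc. For the other genes a change of that size was not excluded by the libraries at hand. The interval is narrower than the test allows, so the counts of genes within 1.5-fold or 2-fold may be too high. In mPFC, ENSRNOG00000026919 had an interval of 0.004 to 0.594, above 0, at an unadjusted p of 0.0665 in edgeR.

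**Figure D5:**
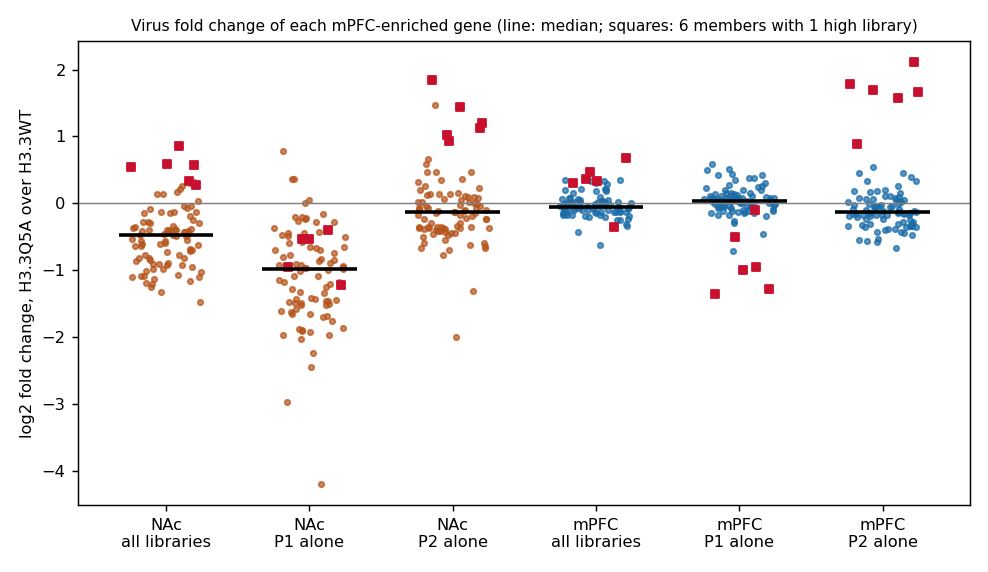
Log2 fold change of H3.3Q5A over H3.3WT for each gene (points), in NAc and in mPFC, over all libraries and over the P1 or P2 libraries alone, with a line at the median and squares for the 6 genes with 1 high mPFC H3.3WT library. The NAc medians are -0.48, -0.98 and -0.13, and the mPFC medians are -0.05, 0.03 and -0.13.

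The difference between the 2 virus effects was tested as an interaction over all 28 libraries, coded as the NAc effect minus the mPFC effect, so that a negative value is a larger ratio of mPFC over NAc with H3.3Q5A. It was called for 0 of the 93 genes in edgeR, for 0% of 15635 genes tested, and for 0 of the 93 in DESeq2 and voom. The H3.3WT ratio in this contrast is the one that chose the genes, so the counts that follow are not independent of the choice. The genes also varied together between NAc libraries, so they are not separate observations. At an unadjusted p under 0.05 the interaction was below 0 for 22 genes and above 0 for none, where 2.68% of all genes were below and 2.58% above. It was below 0 for 74 genes, beside 50.2% of all genes, with a median of -0.52. The median was -1.02 over the P1 libraries and -0.09 over the P2 libraries, -0.76 when NAc H3.3Q5A replicate 19 was left out and -0.31 when NAc H3.3WT replicate 12 was. The larger ratio under H3.3Q5A that 77 genes showed therefore did not pass the test for any of them. ENSRNOG00000012989 had the smallest unadjusted p, with an interaction of -1.82 (SE 0.51, edgeR adjusted p = 0.904), followed by ENSRNOG00000001750 at -0.90 (SE 0.29). In the upward direction ENSRNOG00000029980 had 0.33 (SE 0.25) and ENSRNOG00000006060 had 0.23 (SE 0.17), and both were below 0 over the P1 libraries alone, at -0.22 and -0.079.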

How the data were processed

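Polyadenylated RNA was extracted with Trizol and RNeasy Micro columns and made into TruSeq RNA V2 libraries, which do not record strand, per the labels' protocols. The deposited values are raw counts per Ensembl gene in 1 table with a column for each of the 28 libraries. Per the submitters' processing notes, HISAT2 2.1.0, featureCounts 2.0.1, DESeq2 1.6.3 and build rn6 were used, and the role of each and the annotation are not given in the sources used here. Every gene in the table has at least 10 counts in at least 14 libraries, so genes low everywhere were not analysed here. Without strand, reads of overlapping antisense genes cannot be told apart.

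Levels are CPM over the column sum. Tests used edgeR 4.0.16 in R 4.3.3 (TMM scaling, filterByExpr, quasi-likelihood F test, an additive P1/P2 term, Benjamini-Hochberg adjustment over all genes tested). Each comparison took the libraries of its 2 groups, and the interaction took all 28. Alternatives were DESeq2 1.42.0, limma 3.58.1 (voom with sample quality weights), other scaling, no filter, no mark term, each mark alone, and leaving out libraries. The fits of 2 groups, but not the interaction, were also run on simulated counts with known changes. That simulation drew each gene independently, with no shared difference between libraries and no effect of the mark. It therefore cannot show how the fits behave where genes vary together between libraries, and no result here rests on it.

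The members and gene lists were chosen with earlier results of these data known. The planned symbol lists and cell type markers were not usable because 0 identifiers matched a symbol, and no sequence is shown. Genes were named by these rules: highest level, largest ratio, nearest to a threshold, smallest and largest CV, and smallest unadjusted p per direction, with at most 2 identifiers each way in a comparison. The genes with 1 high library and ENSRNOG00000012067 were named after their values were seen.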

Additional observations from a re-analysis of the deposited data

Results flagged for a closer look

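Levels of 22 of the genes named here and of the list were checked for a library far from the rest of its group by Dixon's criterion. ENSRNOG00000032844, which is 1 of the 6 genes with 1 high library, was not among those checked. It was at 414 CPM in mPFC H3.3WT replicate 13, where the next library of the group had 38.8 CPM. In NAc H3.3Q5A replicate 19 it was at 100 CPM, where the next had 7.46 CPM. Of 104 values checked, 27 stood apart. Chance flags about 1 in 20 groups, but the number here cannot be read against that, because genes were named for a large CV or for 1 high library and the 6 genes of the latter kind vary together. The nearest other library of the group is given in parentheses.

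In mPFC H3.3WT replicate 13, the mean log2(CPM + 0.5) of the 6 genes with 1 high library was 8.08 (4.53), and the 93 genes took 1.36% of counts (1.13%). Its CPM was 153 (15.1) for ENSRNOG00000000451, 1842 (156) for ENSRNOG00000018735, 153 (4.75) for ENSRNOG00000024899, 102 (20.4) for ENSRNOG00000032708 and 215 (17.7) for ENSRNOG00000033215.

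NAc H3.3Q5A replicate 19 stood above its group in the mean log2 level of all 93 genes at 3.65 (2.88), in that of the same 6 genes at 5.92 (1.98) and in the share of counts at 0.295% (0.164%). Its CPM was 57.0 (3.26) for ENSRNOG00000000451, 477 (34.4) for ENSRNOG00000018735, 8.14 (0.445) for ENSRNOG00000024899, 44.5 (1.33) for ENSRNOG00000032708 and 44.5 (2.54) for ENSRNOG00000033215. Outside the 6 genes it was 408 (240) for ENSRNOG00000016156 and 7.97 (3.22) for ENSRNOG00000021256.

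In mPFC H3.3Q5A replicate 2, 3 of the 6 genes were high, at 94.5 CPM (35.8) for ENSRNOG00000000451, 43.9 CPM (14.9) for ENSRNOG00000024899 and 93.6 CPM (18.5) for ENSRNOG00000032708. In NAc H3.3WT replicate 20, ENSRNOG00000032708 was at 7.45 CPM (2.30).

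mPFC H3.3Q5A replicate 34 was low, with a mean log2 level of the other 87 genes of 5.497 (5.79), a share of counts of 0.807% (1.05%) and 43.3 CPM (65.5) for ENSRNOG00000021256. In replicate 37 of that group, ENSRNOG00000026919 was at 35.7 CPM (25.2). NAc H3.3WT replicate 12 was high for ENSRNOG00000012067 at 20.6 CPM (8.08) and for ENSRNOG00000021256 at 19.5 CPM (7.44).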

How the results depend on the processing

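The number of genes was 12 with a log2 ratio of 3 or more and 205 with 1.5 or more, and 78 to 115 under the other settings, among them 79 to 115 with each H3.3WT library left out. A similar number did not always mean the same genes. With medians over libraries in place of means the number was again 93, but 15 genes were lost and 15 gained. Of the 12 genes with a log2 ratio of 3 or more, 11 were called between regions under H3.3Q5A. Under the other settings 84 to 92 genes were called (86 to 92 with each library left out). Those settings were fits over the 93 genes, the 90 genes chosen with TMM-scaled CPM, and the 87 genes outside the 6 with 1 high library. The counts called for the virus in NAc, in mPFC and for the interaction were 0 under every alternative run. Over the P1 libraries alone, ENSRNOG00000029980 was at -0.15 in NAc and -0.22 in the interaction, and ENSRNOG00000006060 was at -0.079 in the interaction, opposite in sign to the values over all libraries. The cause was not tested. In NAc, voom with sample weights gave 53 genes lower at an unadjusted p under 0.05 (9.99% of all genes), against 22 in edgeR (4.32%) and 24 in DESeq2 (5.19%). The median virus change ran from -0.98 to -0.13 in NAc and from -0.13 to 0.09 in mPFC over all alternatives. Leaving out NAc H3.3WT replicate 12 with NAc H3.3Q5A replicate 19, and setting the 6 genes with 1 high library apart, were chosen after seeing the data. No paired analysis was possible because the labels do not tie a library to an animal. Genes under 1 CPM in NAc rest on few counts in the shallower libraries.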
